A study of Arabidopsis thaliana with 12 samples.

Results

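The seedlings compared here were wild type Arabidopsis thaliana of the Col-0 accession and a Col-0 overexpressor of GEM, with and without the hormone abscisic acid (ABA). Of the 12 arrays of the series, 8 enter the comparison, 4 from each of these genotypes. Each overexpressor array was matched to the wild-type array of the same treatment and replicate number, which gave 4 differences per locus, and each locus was read by its brightest feature. Of 32627 loci, 2638 had 4 differences of the same sign. They are described here together with GEM and 20 gene lists.

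All plants were whole seedlings of 10 days, grown on agar with sugar, and RNA from each sample was read on a one-colour array. The wild-type and overexpressor seedlings were either untreated or given 100 uM ABA for 2 hours, and each of these 4 groups holds 2 separate biological samples. The overexpressor carries GEM under 35S, a viral promoter that is active in most plant tissues, and the labels do not say how many transgenic lines were used. The labels name no mock treatment. The other 4 arrays come from gem1, an insertion line, and serve here as values set beside the comparison. They also enter the fits behind the tests. RNA of whole seedlings mixes all organs, so fewer cells of a type and less RNA per cell cannot be told apart in any result below.

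The GEM protein, short for GL2-EXPRESSION MODULATOR, carries a GRAM domain and takes part in the choice between hair and non-hair fate in the root epidermis. It was found as a partner of the replication licensing factor CDT1 and of TTG1, a WD40 protein of the complexes that turn on GL2. GL2 is a homeodomain factor that keeps root epidermal cells hairless and promotes leaf hairs. ABA restrains germination and growth and turns on protective genes under drought.

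Levels are log2 values from the RMA method, so that 1 unit is a 2-fold difference, and array medians lay between 12.18 and 12.21. Leaf photosynthesis markers had array medians of 15.83 to 15.87 and root tissue markers of 12.09 to 13.23, while flower and pollen markers stayed between 8.56 and 8.92. The replicate numbers marked a large shared difference: BGL2, for example, stood at 11.70 on the untreated gem1 array of replicate 1 and at 8.72 on that of replicate 2. Matching by number sets arrays of the same replicate set against each other.

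GEM itself (AT2G22475, chromosome 2, 9541401 to 9545010 on the forward strand, in coordinates of the array annotation, for which the sources used here give no build) was checked first. Its brighter feature read 14.12 and 14.48 in untreated wild type and 14.38 and 14.40 in ABA-treated wild type. In the overexpressor it read 15.81 and 15.78 untreated and 15.73 and 15.74 with ABA. All 4 overexpressor arrays lay above all 4 wild-type arrays and near 15.95, the top of the arrays, where values are compressed. The 4 matched differences were 1.69, 1.31, 1.35 and 1.34, a mean of 1.42 (SE 0.07, n = 4 pairs, 2.68-fold, limma adjusted p = 0.000844), so GEM rose in the overexpressor. Fitted on the 8 arrays alone, the same difference had a limma adjusted p of 0.318. The gem1 arrays gave 14.38 and 14.61 untreated and 14.44 and 14.59 with ABA, which is the wild-type range or slightly above it.

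The dimmer GEM feature gave another picture. Wild type read 9.38 and 9.65 untreated and 9.32 and 9.54 with ABA. The overexpressor read 11.36 and 11.98 on the replicate 1 arrays, untreated and with ABA, but 9.56 and 9.38 on the replicate 2 arrays. The 2 arrays of replicate 1 therefore stood apart from wild type and those of replicate 2 did not. Over 4 pairs the mean difference was 1.10 (SE 0.50, limma adjusted p = 1 over all features). All 4 gem1 arrays were high in this feature, at 11.16 to 11.62. Whether the replicates of the overexpressor hold the same transgenic line was not tested.

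**Figure D1:**
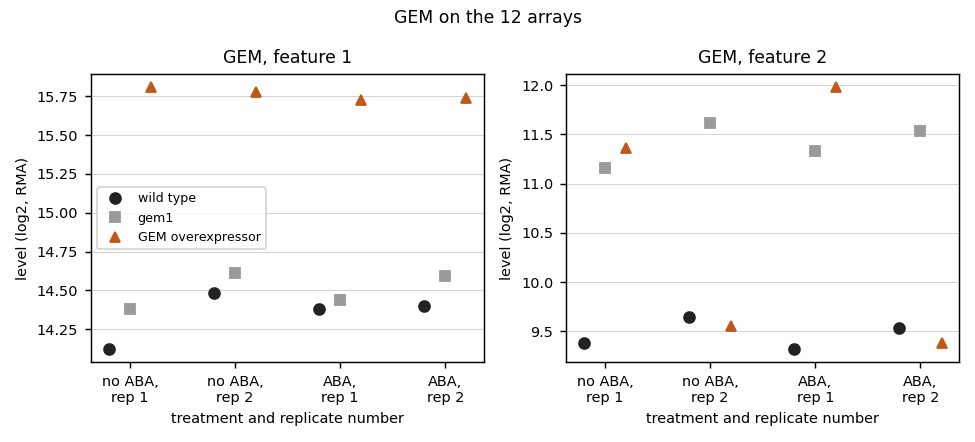
GEM levels (log2, RMA) on the 12 arrays for its 2 features, by treatment and replicate number; each point is 1 array. In feature 1 the overexpressor sits at 15.73 to 15.81 on all 4 arrays, above every other array. In feature 2 its replicate 1 arrays are at 11.36 and 11.98 and its replicate 2 arrays at 9.56 and 9.38.

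The genes beside GEM had small differences. The 3 loci on each side of GEM had mean differences of -0.12 (AT2G22460) to 0.07 (the cyclin gene CYCD2;1), each with a limma adjusted p of 1. They include AGP2, an arabinogalactan protein gene, at 0.05 and PFK5, a phosphofructokinase gene, at -0.02. Among the 8 other GRAM domain genes of the list, the mean differences ran from -0.03 (AT4G01600) to 0.41 (AT5G08350). Only AT5G23360 had 4 differences of the same sign, at 0.06, 0.05, 0.22 and 0.50. Of all loci, 8.09% had 4 differences of the same sign in either direction, so nothing is read from this locus.

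Over all loci, GEM alone passed the limma threshold, an adjusted p of 0.05. That is 1 locus higher (0.00306% of those tested) and 0 lower (0%). An unadjusted p under 0.05 was reached by 1084 loci (3.32%), and the median standard error of a difference was 0.093. The next locus after GEM, SADHU3-2, had an adjusted p of 0.101. The test of whether the overexpressor's difference changed with ABA gave 0 loci (limma, 0%), 662 at an unadjusted p under 0.05 (2.03%), with a median standard error of 0.198.

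The 4 differences had the same sign and were higher in the overexpressor at 1244 loci (3.81%) and lower at 1394 (4.27%). Both shares are below what 4 independent and evenly likely signs would give, so no response to GEM is read from these counts. The differences were small: the median size of the mean difference was 0.128 among the loci that were higher and 0.127 among those that were lower, against 0.062 for all loci. At 7417 loci 1 difference of 4 was higher, at 14323 it was 2, and at 8216 it was 3. GEM alone had all 4 differences at 1 or more (0.00306%), and no locus had all 4 at -1 or less (0%). The nearest locus outside that threshold was AT2G30766, with a smallest difference of -0.96, followed on the higher side by AT2G06002 with 0.78. At 0.5 or more there were 3 loci higher (0.00919%), which were GEM, AT2G06002 and SADHU3-2. At -0.5 or less there were 5 (0.0153%), which were AT2G30766, AT4G08093, AT1G13609, AT3G01345 and MBP1.

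The pairs were not alike across loci. Across the 32627 loci, the untreated replicate 1 difference ran against the untreated replicate 2 difference (r = -0.47) and against the ABA replicate 1 difference (r = -0.48), while these last 2 ran together (r = 0.63). None of these differences share an array, and loci are not replicates, so the correlations are descriptions. The untreated replicate 1 difference also followed the gap between the replicate sets on the untreated gem1 arrays, replicate 2 minus replicate 1 (r = 0.55), whereas the untreated replicate 2 and ABA replicate 1 differences ran opposite to the same gap (r = -0.49 and -0.54). The ABA replicate 2 difference followed it weakly (r = 0.17). Without the untreated replicate 1 pair, 5306 loci were higher and 4576 lower in all 3 remaining pairs. Without any other single pair those counts ran from 1969 to 3489 higher and from 2525 to 3024 lower.

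**Figure D2:**
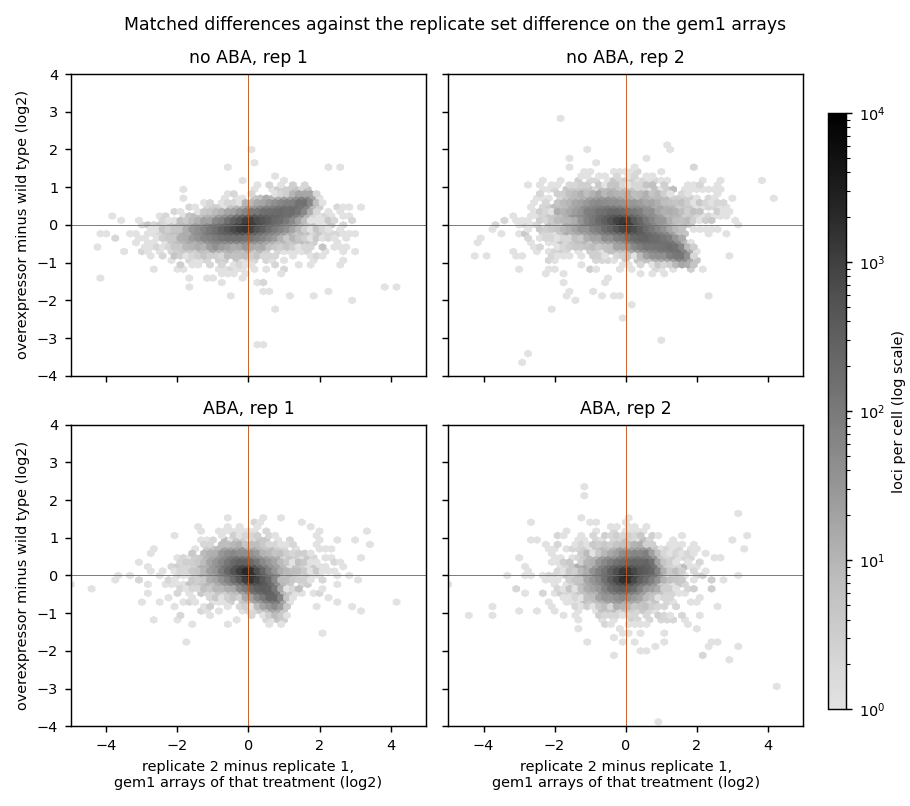
Overexpressor minus wild type (vertical, log2) against replicate 2 minus replicate 1 on the gem1 arrays of the same treatment (horizontal, log2), one panel per matched pair; shading gives loci per cell on a log scale, over 32627 loci. The cloud tilts up in the untreated replicate 1 panel (r = 0.55) and down in the untreated replicate 2 panel (r = -0.49) and in the ABA replicate 1 panel (r = -0.42 with the ABA gap).

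Of the higher loci that have a symbol, SADHU3-2, a transposable element gene of the SADHU family (AT3G42658, chromosome 3), came closest to the threshold. It read 11.34, 11.91, 11.26 and 11.31 in wild type, in the order untreated 1, untreated 2, ABA 1 and ABA 2, which is kept below. The overexpressor read 12.45, 12.59, 11.89 and 12.18. Every overexpressor array was above its matched array, but the lowest of them, 11.89, lay just under the highest wild-type array, 11.91. The mean difference was 0.82 (SE 0.08, 1.77-fold, limma adjusted p = 0.101). On the gem1 arrays it was lower than on each matched wild-type array, with a mean difference of -0.31. All gem1 differences given here share the wild-type arrays with those of the overexpressor.

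AT2G06002, which the array annotation calls other RNA, had larger but less even differences. Wild type read 9.63, 9.34, 9.87 and 11.30, and the overexpressor 10.71, 11.41, 11.27 and 12.08. The groups overlapped through the ABA replicate 2 wild-type array. The differences were 1.09, 2.07, 1.40 and 0.78, with a mean of 1.33 (SE 0.24, limma adjusted p = 1). The gem1 arrays were higher than wild type here too, by 0.89, and AT5G35935, a transposable element gene, was higher by 0.82 in the overexpressor (SE 0.18) and by 1.21 on the gem1 arrays.

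The other higher loci each had a limma adjusted p of 1. NAP, a NAC factor of leaf senescence, read 11.32, 10.38, 13.70 and 14.23 in wild type and 11.51, 11.54, 14.18 and 14.73 in the overexpressor. The ABA-treated arrays of both genotypes were the high ones, so the groups of 4 overlapped, and within pairs the overexpressor was higher by 0.19, 1.16, 0.48 and 0.50. On the gem1 arrays ABA-treated seedlings exceeded untreated ones by 2.73 and 3.84, a gap of the same direction as in wild type. ATHSFA2, a heat stress factor, read 10.96, 10.79, 10.85 and 10.45 in wild type and 11.14, 11.11, 11.12 and 11.23 in the overexpressor, with no overlap (mean 0.39, and 0.46 for gem1 minus wild type). Its second feature, however, had differences of -0.48, 1.47, 0.79 and 1.19. MYB77, a MYB factor of auxin-dependent lateral root growth, was higher by 0.36 on average (SE 0.14), and by 0.07 on the gem1 arrays.

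HDA18, a histone deacetylase known for a part in root epidermal patterning, read 11.10, 10.96, 11.21 and 11.18 in wild type. The overexpressor read 11.33, 11.41, 11.51 and 11.65, so that every array lay above all of wild type. The mean difference was 0.36 (SE 0.09, limma adjusted p = 1), and the gem1 arrays were higher than wild type by 0.34. LBD26, a LOB domain factor, was also without overlap, at 10.33 to 10.57 in wild type and 10.66 to 11.09 in the overexpressor, a mean difference of 0.43, and gem1 minus wild type was 0.46. The other loci with a symbol were PDF1.2b, a plant defensin gene of the jasmonate and ethylene pathway (0.54), SAUR29 (0.52), the Rab GTPase gene ARA (0.38), the tropinone reductase gene TRI (0.38), the Nudix hydrolase gene atnudt4 (0.36), the microRNA precursor locus MIR850A (0.29), the xylosidase gene XYL4 (0.26) and the Alfin-like factor AL5 (0.26). In the order of these loci, gem1 minus wild type was 0.44, 0.19, 0.17, 0.22, 0.38, 0.18, -0.04 and 0.10. AT3G55240, annotated with a pseudo-etiolated phenotype when overexpressed, was higher by 0.42, AT1G29430 by 0.51 and the transposable element gene AT4G04410 by 0.41. For AT3G55240, AT1G29430 and AT4G04410, gem1 minus wild type was -0.18, 0.27 and 0.35. In 5 of the 20 named higher loci the groups of 4 did not overlap, against 47 of all loci (0.144%). The 20 were chosen by the size of these differences, so nothing is read from that count.

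**Figure D3:**
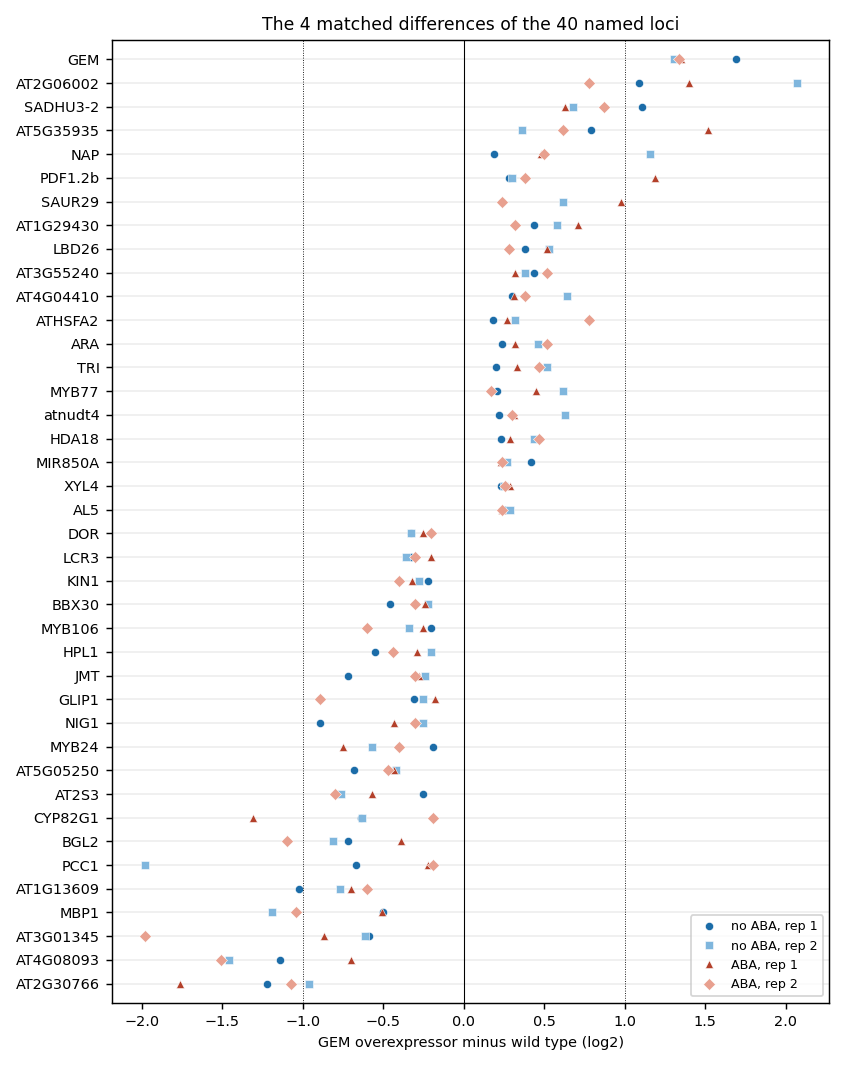
The 4 matched differences (overexpressor minus wild type, log2) of the 40 named loci, ordered by their mean; each point is 1 pair and dotted lines mark 1 and -1. GEM is the only locus with all 4 points beyond a dotted line, and the points of PCC1 spread from -1.98 to -0.19.

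The lower group was led by loci without a symbol. AT2G30766, annotated as an unknown protein, read 12.24, 10.87, 11.93 and 11.54 in wild type and 11.02, 9.92, 10.17 and 10.47 in the overexpressor. Each overexpressor array was below its matched array, but the groups overlapped, since 11.02 in untreated replicate 1 of the overexpressor lies above 10.87 in untreated replicate 2 of wild type. The mean difference was -1.25 (SE 0.33, 2.38-fold lower, limma adjusted p = 1), and gem1 minus wild type was -0.29. AT4G08093, a pseudogene, read 9.54 to 10.24 in wild type and 8.64 to 8.84 in the overexpressor, with no overlap and a mean difference of -1.21 (SE 0.17, limma adjusted p = 0.831). Its level was also low on the gem1 arrays, at 8.70 to 9.25, as was that of AT3G01345, whose mean difference was -1.01 in the overexpressor and -0.88 on the gem1 arrays.

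AT1G13609, a defensin-like gene, did not overlap either. Wild type read 10.12, 9.61, 9.58 and 9.65 and the overexpressor 9.10, 8.84, 8.88 and 9.05. The mean was -0.77 (SE 0.34, limma adjusted p = 1), while the 4 differences had a standard deviation of 0.18. On the gem1 arrays this locus read 11.32, 9.71, 10.75 and 8.98, a wider range than that of both other genotypes together. AT5G05250, an unknown protein, had a mean difference of -0.50, beside -0.40 for gem1 minus wild type.

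Of the lower loci with a symbol, the largest smallest difference was that of MBP1. MBP1, a myrosinase-binding protein gene of the glucosinolate defence, read 13.66, 12.99, 13.59 and 13.68 in wild type and 13.15, 11.79, 13.08 and 12.63 in the overexpressor. The overexpressor's lowest array was the untreated replicate 2, and the groups met only at 12.99 to 13.15. The mean difference was -0.81 (SE 0.15, 1.76-fold lower, limma adjusted p = 1). On the gem1 arrays the mean difference from wild type was -1.38.

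BGL2, the salicylate-induced glucanase also known as PR2, read 13.27, 9.28, 12.91 and 10.16 in wild type and 12.55, 8.47, 12.52 and 9.06 in the overexpressor. Both genotypes were high in replicate set 1 and low in set 2, a gap of -2.98 untreated and -4.35 with ABA on the gem1 arrays, set 2 minus set 1. The matched differences were -0.72, -0.81, -0.39 and -1.10 (mean -0.75), and the mean for gem1 minus wild type was -0.80. PCC1, a pathogen- and clock-controlled gene, had set gaps of -1.44 and -4.97 on the gem1 arrays, and its differences were -0.67, -1.98, -0.22 and -0.19 (mean -0.76, SE 0.49). HPL1, a hydroperoxide lyase of wound volatiles, had set gaps of -2.83 and -2.82 and a mean difference of -0.37 (SE 0.13). CYP82G1, which makes a defence volatile, had a mean of -0.69 (SE 0.34), and its second feature did not keep the sign, at -0.15, -0.66, -0.44 and 0.07. The lipase gene GLIP1, an ethylene-linked defence gene, and the flower factor MYB24 did not overlap, with means of -0.41 and -0.48, beside -0.37 and -0.20 for gem1 minus wild type. GLIP1 was dim, with mean levels of 8.38 in wild type and 7.97 in the overexpressor, where array minima were 6.99 to 7.15. For PCC1, HPL1 and CYP82G1 the gem1 means were -0.34, -0.19 and -1.02.

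**Figure D4:**
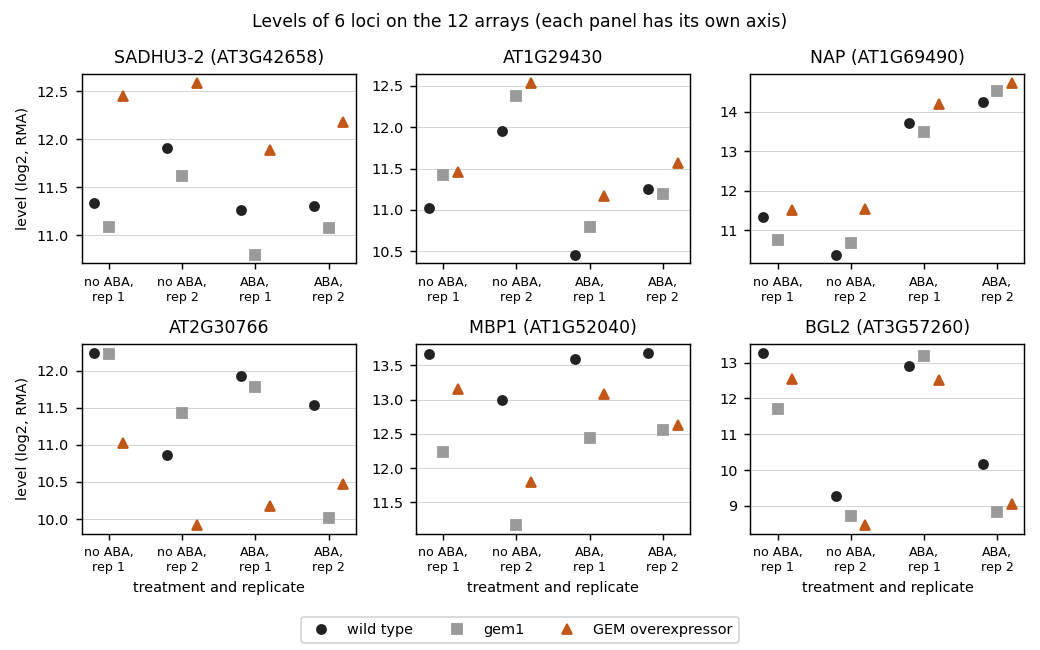
Levels (log2, RMA) of 6 named loci on the 12 arrays, by treatment and replicate number; each point is 1 array and each panel has its own axis. The overexpressor lies on the same side of wild type in all 4 pairs of each panel; BGL2 is high in replicate 1 and low in replicate 2 in every genotype, and NAP is high in all ABA-treated arrays.

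The remaining lower loci with a symbol had mean differences of -0.60 to -0.28. They were the seed storage albumin gene AT2S3 (-0.60), the bHLH factor gene NIG1 (-0.46), JMT, which methylates jasmonic acid (-0.38), MYB106, a factor of cuticle and leaf hair development (-0.35), the B-box gene BBX30 (-0.30), the cold- and ABA-induced KIN1 (-0.30), the defensin-like LCR3 (-0.29) and DOR, an F-box gene of drought response in guard cells (-0.28). In the order of these loci, gem1 minus wild type was -0.44, -0.21, 0.14, -0.10, -0.09, -0.43, -0.19 and -0.18. KIN1 read 10.73, 10.00, 14.31 and 14.55 in wild type and 10.51, 9.72, 13.99 and 14.15 in the overexpressor. Both treatments showed a similar gap, from -0.22 to -0.40, around an ABA response of 3.26 and 4.66 on the gem1 arrays. Its neighbour and close copy KIN2 had differences of 0.08, -0.58, -0.03 and 0.01, and signal shared between the copies was not tested. KIN2 averaged 15.67 in wild type and 15.54 in the overexpressor, near the top of the arrays, where values are compressed. In 4 of the 20 named lower loci the groups of 4 did not overlap, against 96 of all loci (0.294%), and the choice of these loci by their differences applies here too.

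The gem1 arrays enter the 4 differences only through the choice of feature at loci that have more than 1, and measures from them describe the agreeing loci further. ABA-treated gem1 seedlings exceeded untreated ones by at least 2-fold in both replicates at 36 of the loci that were higher (2.89%) and at 27 of those that were lower (1.94%), against a background of 1.98%. The opposite response was found at 14 (1.13%) and 6 (0.43%), against 0.668%. The higher loci had a median gem1 level of 13.24 and the lower loci of 11.54, with 12.17 over all loci. Replicate 2 was at least 2-fold below replicate 1 under both treatments at 5 of the higher loci (0.402%) and at 18 of the lower loci (1.29%), against 0.638%. It was at least 2-fold above at 10 (0.804%) and 1 (0.0717%), against 0.429%.

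A further feature of the same locus was available for 184 of the higher loci, and in 27 of these (14.7%) it also had 4 differences above 0, against 5.25% of all loci with a second feature. For the lower loci the count was 15 of 140 (10.7%) against 3.14%. The sources used here do not say whether the features share probes. Agreeing loci were not gathered along the chromosomes: 7.48% of the higher loci lay beside another one, and 7.43% of all loci did. For the lower loci the shares were 8.75% and 8.33%. The longest run was 5 lower loci on chromosome 1, AT1G51080 to AT1G51110, with mean differences of -0.05 to -0.59.

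Auxin-responsive genes form a group that was picked from the annotation after the values were seen. In all, 102 loci are annotated as SAUR (small auxin up RNA, quickly induced growth genes) or auxin-responsive. Of these, 17 were higher in all 4 pairs (16.7%, against 3.81% of all loci) and 3 were lower (2.94%, against 4.27%). The 17 include SAUR19 (0.46), SAUR26 (0.29), SAUR29 (0.52) and SAUR36 (0.30). Medians over the 102 loci were 0.03, 0.15, 0.26 and -0.01 in the 4 pairs, so the group as a whole was not higher in every pair. On chromosome 1, 8 such loci lie close together from AT1G29420 to AT1G29510, and their mean differences were 0.39 to 0.62. All 8 were higher in both untreated pairs and in the ABA replicate 1 pair, but only 4 in the ABA replicate 2 pair. The 4 loci of other kinds between them had means of -0.09 to -0.01. Cross-hybridisation among these similar genes was not tested. None of them passed the limma threshold.

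Within the auxin cluster, AT1G29430 read 11.02, 11.96, 10.46 and 11.25 in wild type and 11.46, 12.54, 11.17 and 11.57 in the overexpressor. The untreated replicate 2 arrays were the high ones and the ABA replicate 1 arrays the low ones in both genotypes. Each overexpressor array exceeded its match, by 0.44, 0.58, 0.71 and 0.32. On the gem1 arrays the difference of ABA-treated from untreated seedlings was -0.63 and -1.19.

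Defensin-like genes, small secreted cysteine-rich peptides, were the other such group. Of 204, 28 were lower in all 4 pairs (13.7%, against 4.27%) and 8 were higher (3.92%, against 3.81%). The medians of the whole group were small and changed sign between pairs, at 0.05, -0.14, -0.10 and -0.03. Except for AT1G13609, the lower ones had mean differences of -0.34 to -0.06, and the group's median gem1 level was 8.19, near the bottom of the arrays. Transposable element genes were less common among agreeing loci than on the array, at 2.89% of the higher loci and 5.38% of the lower ones against 11.8%. Their medians over 3853 loci switched sign between pairs, at 0.30, -0.45, -0.29 and 0.17, and their replicate set gap on the gem1 arrays was 0.96 untreated and 0.46 with ABA.

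Root hair genes were taken next, because GEM is known for epidermal fate. None of the 26 root hair growth genes had 4 differences of the same sign (background 8.09% in either direction), and none passed the limma threshold. Within each pair nearly all of them had the same sign, but the sign differed between pairs. In the untreated replicate 1 pair 24 of 26 were lower in the overexpressor, in the untreated replicate 2 and ABA replicate 1 pairs all 26 were higher, and in the ABA replicate 2 pair 23 were lower. The list medians were -0.20, 0.35, 0.42 and -0.40. RHS18, a peroxidase gene of root hairs, spanned -0.33, 0.92, 0.92 and -1.05, and RSL4, the bHLH factor that drives hair growth, -0.38, 0.51, 0.56 and -0.64 (both chosen after their values were seen). The other root tissue markers had medians of -0.06, 0.11, 0.18 and -0.14. The part of unequal root tissue in the root hair medians was not tested.

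The epidermal fate regulators gave 0 higher and 2 lower of 22 (9.09%), which is close to the 8.09% of all loci, with a list median of -0.08. GL2 read 13.08, 12.82, 12.81 and 12.70 in wild type and 12.75, 12.72, 12.97 and 12.16 in the overexpressor. It was lower in 3 pairs and higher in the ABA replicate 1 pair, and the groups overlapped (mean -0.20, SE 0.12, limma adjusted p = 1). WER, the MYB factor that turns on GL2 in the root, had differences of -0.03, 0.50, 0.73 and -0.21. For TTG1 the differences were 0.14, -0.10, -0.19 and -0.27. GL3 and EGL3, the bHLH partners of the complex, averaged 0.08 (SE 0.20) and -0.02 (SE 0.11), and CPC, the mobile repressor that permits hairs, -0.04 (SE 0.10). These 3 signs turned when single arrays were left out. The 2 regulators lower in all 4 pairs were the zinc finger genes GIS, of leaf hair initiation (-0.58, -0.28, -0.15 and -0.13), and ZFP5, of leaf and root hairs (-0.27, -0.02, -0.05 and -0.50).

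Replication licensing and cell cycle genes, the setting of GEM's partner CDT1, gave 0 of 26 in either direction (background 8.09%). Their mean differences ran from -0.12 to 0.16. In the untreated replicate 1 pair 22 of 26 were lower and in the ABA replicate 1 pair 23 were higher. The CDT1 genes ATCDT1A and ATCDT1B averaged -0.08 (SE 0.12) and -0.12 (SE 0.16).

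Among ABA-induced genes 3 were higher and 4 lower of 22 (31.8% in either direction, against 8.09% of all loci), with both signs present and a list median of -0.03. Higher were CYP707A3, an ABA-degrading enzyme (0.42, 0.54, 0.05 and 0.27), the homeobox gene ATHB-12 (mean 0.11) and RD22 (mean 0.04). For CYP707A3, gem1 minus wild type was 0.39. RD22 averaged 15.81 in wild type, near the top of the arrays. Lower were KIN1, ADH1 (mean -0.13), ATHB-7 (mean -0.10) and COR15A, a chloroplast-protecting cold gene. COR15A's mean of -0.96 came from 1 pair: its differences were -0.02, -3.45, -0.22 and -0.16, and the untreated replicate 2 overexpressor array read 9.12 against 12.57 in wild type. The ABA signalling core gave 1 higher, the receptor gene PYL7 (mean 0.13), and 1 lower, the seed factor gene ABI3 (mean -0.25), of 29 (6.9%, against the same 8.09%).

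Seed storage and maturation genes, which mark ungerminated or recently germinated seed, had 3 of 12 lower and 0 higher (25.0% in either direction, against 8.09% of all loci). The 3 were AT2S3, SESA1 and CRU2, with means of -0.60, -0.40 and -0.21. SESA1 (mean level 8.50 in wild type and 8.10 in the overexpressor) and CRU2 (8.04 and 7.83) were near the bottom of the arrays. For the 3 loci gem1 minus wild type was -0.44, -0.42 and -0.05. The list's median mean difference was -0.43, but the pair medians were 0.17, -0.51, -0.17 and -0.79. CRU3, a cruciferin gene, showed the spread most clearly, at 1.51, -1.86, -0.72 and -2.92 (chosen after its values were seen). Unequal seed remains between samples were not tested.

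Flavonoid and anthocyanin genes had 0 of 20 in either direction (background 8.09%). Their medians were -0.43 and -0.32 in the untreated pairs and 0.01 and 0.24 in the ABA pairs. In each untreated pair 15 of 20 were lower. In the ABA replicate 1 pair 10 were higher and 10 lower, and in the ABA replicate 2 pair 17 were higher. The list's median replicate set gap on the gem1 arrays was -1.30 untreated and -0.60 with ABA. DFR, an anthocyanin enzyme gene, went from -0.76 and -1.11 untreated to 0.04 and 0.54 with ABA, and PAP1, the MYB activator of the pathway, from -0.77 and -0.90 to -0.54 and 0.43 (both chosen after their values were seen). No member passed the limma test of a difference between treatments.

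The counts in the following lists are to be read against the 8.09% of all loci that agreed in either direction. Salicylate and pathogen defence genes had 3 of 14 lower (21.4%), BGL2, PAD3 of camalexin synthesis (mean -0.81) and ACD6 (mean -0.30), with a list median of 0.01. For PAD3 and ACD6, gem1 minus wild type was -0.81 and 0.46. Touch, cold and rapid stress genes had 3 of 15 higher, ERF104 (0.35), the calmodulin-like TCH2 (0.23) and CBF2 (0.17), and a median of 0.18. The pair medians of that list were 0.28, 0.35, -0.06 and 0.17, and 9 of 15 members were lower in the ABA replicate 1 pair. Heat shock genes had 2 of 11 higher, ATHSFA2 and HSP70 (0.15). Phosphate, iron and nitrate genes had 2 of 17 lower (11.8%, near that of all loci), the iron transporter gene IRT1 (-0.41) and ATSPX3 (-0.16). In that list 15 of 17 were lower in the untreated replicate 1 pair, with MGDC, a phosphate starvation lipid enzyme, at -1.39 there and at 0.50, 0.30 and 0.11 in the other pairs (chosen after its values were seen).

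Leaf photosynthesis markers had 1 higher and 2 lower of 17, a larger share than that of all loci. Root tissue markers had 1 higher of 14 (7.14%). The mean differences of those 4 loci lay within 0.06 of 0. Reference genes had 1 higher of 9 (11.1%), ACT2 at 0.04. The leaf members LHCB3, LHCA1 and RCA averaged 15.81, 15.88 and 15.87 in wild type, and ACT2 averaged 15.85. These levels lie near the top of the arrays, where values are compressed. Small differences there cannot show unchanged levels. Jasmonate response, circadian clock, stomatal lineage, RNA silencing and flower and pollen lists had 0 members with 4 differences of the same sign. In the jasmonate list 11, 12 and 13 of 15 were lower in the untreated 1, untreated 2 and ABA 1 pairs and 14 of 15 higher in the ABA 2 pair. Apart from GEM, no member of any list passed the limma threshold.

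**Figure D5:**
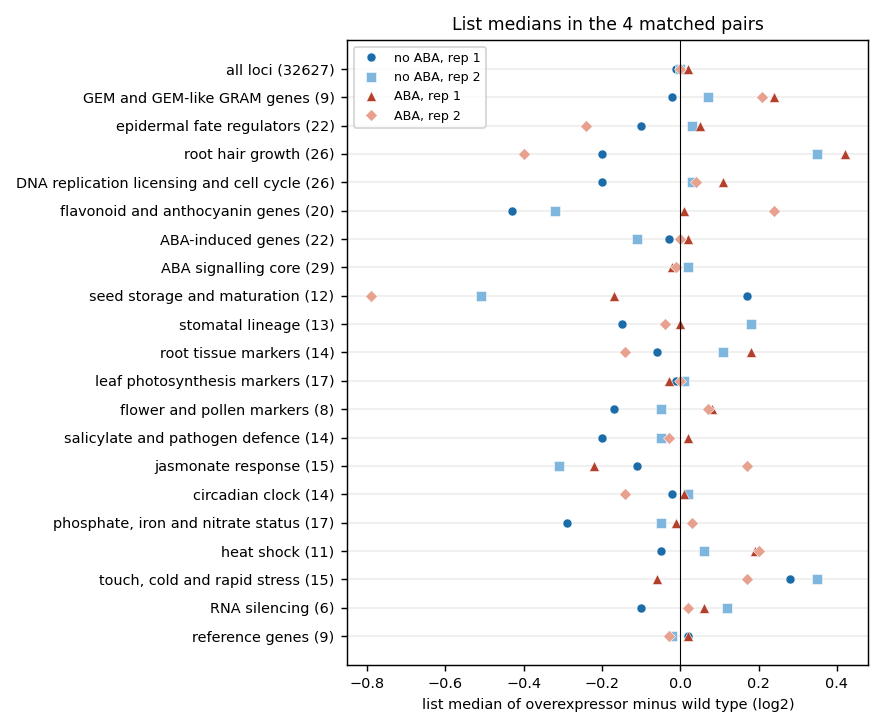
Median over each gene list of overexpressor minus wild type (log2) in each of the 4 matched pairs; list sizes are in brackets and each point is 1 pair. Root hair growth has medians of -0.20, 0.35, 0.42 and -0.40, and all loci lie within 0.02 of 0. Flavonoid genes are at -0.43 and -0.32 untreated and at 0.01 and 0.24 with ABA.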

How the data were processed

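The values deposited by the authors hold log2 expression per transcript feature. They were made with RMA (no version given), per the submitters' processing notes. The log2 scale was inferred from the values. Per the file headers each value rests on 1 to 4 probes, and the count of probes deposited beside it was used only as a description. The sources used here name neither the array design nor the genome build. RMA equalises the distributions of arrays, which hides a change in total RNA, and values near the top are compressed.

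Each of 32627 loci was read by its feature with the highest mean over 12 arrays. Names came from the array annotation and a RefSeq gene table. One limma fit (limma 3.58.1, R 4.3.3) of genotype on all 12 arrays, with the 4 treatment-and-replicate sets as a block (6 residual degrees of freedom), tested the mean of the 4 differences, two-sided, adjusted over all loci by Benjamini-Hochberg at a threshold of 0.05. A fit of 6 group means with the replicate block (5 degrees of freedom) tested the difference between treatments. Deviations of same-numbered arrays from their group means correlated in all 15 pairs of groups (0.44 to 0.88), so the numbers were taken to pair the arrays. The fit of genotype was tested on simulated data, and the fit of the difference between treatments was not.

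Members, lists and tests were chosen with earlier results of these data known. Named loci are GEM, the 15 higher and 15 lower with a symbol and 5 each without one that have the largest smallest difference, up to 4 members per list, and 6 epidermal regulators. Files were read with pandas 2.3.3 in Python 3.11.15 and figures drawn with matplotlib 3.10.9. Alternatives covered the block, the arrays fitted, a variance trend, array weights, dim loci, normalization, features and leaving out arrays or pairs. The number of arrays limits the precision.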

Additional observations from a re-analysis of the deposited data

Results flagged for a closer look

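GEM's second feature lies outside the comparison of 1 feature per locus. It exceeded every wild-type array by more than 1 on the log2 scale on 6 of the 8 other arrays: at 11.16 and 11.62 on untreated gem1 arrays, 11.33 and 11.53 on ABA-treated gem1 arrays, and 11.36 and 11.98 on the replicate 1 arrays of the overexpressor.

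In 2 lists both untreated pairs had a median below 0 and both ABA pairs one above 0. For flavonoid genes the ABA replicate 1 median was only 0.01, with 10 of 20 members higher and 10 lower. The ABA minus untreated difference was 0.50 for flavonoid and anthocyanin genes and 0.19 for flower and pollen markers, and the difference of the list medians was not tested. Flower and pollen markers were dim, with array medians of 8.56 to 8.92 where array minima were 6.99 to 7.15. Their pair medians were small, at -0.17, -0.05, 0.08 and 0.07.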

How the results depend on the processing

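GEM's difference was 1.35 to 1.45 when single arrays were left out and passed the threshold each time. With only the 8 arrays compared it was 1.42 but no longer passed (limma adjusted p = 0.318), and with the mean of the features of a locus it was 1.26 (adjusted p = 1). The count of loci higher was 0 in both of these fits, and 1 with no replicate block and with a replicate block of 2 numbers. With single arrays left out it was 1 to 2, the second being AT1G38630 (0.82, adjusted p = 0.0484) without the untreated replicate 1 overexpressor array, and the count lower was 0 throughout. For the difference between treatments, leaving out single arrays gave 0 to 1 loci, the 1 without the untreated replicate 2 wild-type array.

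Loci with differences of the same sign numbered 1969 to 5306 higher and 2525 to 4576 lower without 1 pair, and 791 lower without the dimmest 30% of loci. With 1 pair left out these counts cannot fall, since fewer signs must agree. At 2-fold in every pair, leaving out a pair gave 1 to 2 higher and 0 to 1 lower, the mean of features 0 higher, and a minimum of 0.5 gave 3 higher and 5 lower. With single pairs left out the ABA signalling core median was -0.04 to -0.01. With single arrays left out GL3 ran from -0.116 to 0.258, EGL3 from -0.0799 to 0.0441 and CPC from -0.0972 to 0.0771, against 0.08, -0.02 and -0.04 with all arrays, and EGL3 was 0.0136 with array weights. The other 1540 of 1548 recomputed values of the 68 named loci besides GEM kept their sign and side of the threshold, with a smallest adjusted p of 0.0745. Except for GL2, WER, TTG1, GL3, EGL3 and CPC, all matched differences of each of these loci already had the same sign. A kept sign therefore largely follows from the choice of loci. None of the 68 passed the threshold with all arrays. No stability is read from this tally.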
